A study of Mus musculus with 8 samples.

Results

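The comparison described here is the difference between 2 effects of spinal muscular atrophy (SMA) in the mouse spinal cord: the SMA minus wild-type (WT) difference in motor neurons, less the SMA minus WT difference in white matter. Statistically it is the interaction of genotype and region, and all 8 libraries of the series enter it. It was computed for the 13948 of 23278 genes that reached 1 RPKM (reads scaled to gene length and library size) in at least 2 libraries. A total of 99 of these genes lay apart in opposite directions in the 2 regions, and they are the main subject of the account.

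Tissue came from lumbar segments of the cord of mice of strain FVB/N on postnatal day 1, a stage before overt disease in this model. WT motor neurons, SMA motor neurons, WT white matter and SMA white matter were each represented by 2 libraries. The genotype of the SMA mice was SMN2+/+;SMNΔ7+/+;Smn-/-: both copies of mouse Smn are missing, and human SMN2 and a human SMN transgene without exon 7 are present, whereas the WT label names neither human gene. The absence of Smn and the presence of the human genes therefore cannot be told apart. Motor neurons of the ventral horn and white matter, labelled as white matter glia, were cut out by laser from frozen sections stained with hematoxylin, so captures were chosen by position and shape and can hold neighbouring cells. The labels name no animals. Regions of the same animal could not be paired, and p-values reflect only how far these libraries spread.

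SMA is caused by too little survival motor neuron (SMN) protein. SMN acts in all cells, where it loads Sm proteins onto small nuclear RNAs to build the spliceosome, yet motor neurons are the cells that fail. White matter of the newborn cord holds ascending and descending axons, astrocytes, dividing oligodendrocyte precursors and the first myelinating oligodendrocytes. Setting both regions against their own WT controls asks which SMA differences belong to 1 of them. MicroRNAs, which make up some of the genes described, are cut from a hairpin in a longer transcript and bind messenger RNAs mainly through their seed.

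Small RNA genes made up 11 of the 99 genes (11.1%), against 331 of all 13948 tested genes (2.37%). They were 7 microRNA genes and 4 small nucleolar RNA genes. The mature sequences of the 5 microRNA genes with the clearest opposite pattern are shown because 3 of them lie in 1 imprinted cluster and take opposite directions there. Sequences are from RefSeq (GRCm38.p6), 5′ to 3′, with the seed (bases 2 to 8) in capitals.
mmu-miR-453: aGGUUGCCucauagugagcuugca
mmu-miR-667-5p: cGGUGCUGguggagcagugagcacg
mmu-miR-667-3p: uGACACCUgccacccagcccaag
mmu-miR-300-5p: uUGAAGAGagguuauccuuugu
mmu-miR-300-3p: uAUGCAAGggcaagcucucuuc
mmu-miR-100-5p: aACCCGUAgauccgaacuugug
mmu-miR-100-3p: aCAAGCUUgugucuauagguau
mmu-miR-199a-5p: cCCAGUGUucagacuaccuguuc
mmu-miR-199a-3p: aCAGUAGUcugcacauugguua
None of these seeds was shared within the group. In the RefSeq mouse set, the seed of miR-100-5p stood in 3 mature microRNAs, those of miR-453 and miR-199a-3p in 2 each and the others in 1. The values below are reads over the hairpin gene in a total RNA library of sheared and size-selected cDNA. They need not come from the mature microRNA, and the part of longer overlapping transcripts in them was not tested.

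Values are given as scaled RPKM, the deposited RPKM divided by a median-of-ratios factor per library (0.840 to 1.16), and differences as log2(scaled RPKM + 1), a scale that understates the difference of genes with low levels. Library denominators were 77.5 to 102.8 M reads, and 11539 to 12796 genes per library reached 1 RPKM. Replicates correlated across genes at 0.963 in motor neurons and 0.934 in white matter of WT mice, and at 0.889 in motor neurons and 0.943 in white matter of SMA mice. The 2 SMA motor neuron libraries thus differed most from each other, and replicate 2 had the highest share of the ribosomal RNA gene Rn45s (33.4% of the RPKM sum, against 19.4 to 29.5% in the others). In every group, replicate 1 held Xist at 11.99 or more and replicate 2 held Ddx3y at 0.747 or more scaled RPKM, with Ddx3y listed at 0 in replicate 1. Xist is expressed in female and Ddx3y in male mice, so the 2 libraries of a group came from different animals of opposite sex, and sex went with the replicate number in all 4 groups. Smn1, the targeted gene, was listed at 0 in all 4 SMA libraries and at 3.03 to 15.9 in the WT libraries. Motor neuron captures held the defining markers Chat (10.3 to 23.9), Isl1 (19.0 to 36.1) and Mnx1 (5.08 to 8.25), while white matter captures held at most 0.777, 0.519 and 0.0795. Mbp, the major myelin protein, was at 934 to 2190 in white matter and at 17.5 to 58.5 in motor neuron captures.

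No gene passed the test of the interaction (limma with Benjamini-Hochberg adjustment over 13948 genes, adjusted p under 0.05). The smallest adjusted p was 0.235, for Mir453. At an unadjusted p under 0.05 there were 411 genes (2.95% of those tested), 190 with a higher (1.36%) and 221 with a lower (1.58%) SMA difference in motor neurons, where 5% of the tested genes would be 697. limma voom on the whole reads worked back from the RPKM values also called 0 genes, with 368 at an unadjusted p under 0.05. The SE of the interaction was 0.51 for the median gene. Within regions the same fit called 0 genes in motor neurons (smallest adjusted p = 0.257, 695 genes at an unadjusted p under 0.05) and 0 in white matter (smallest adjusted p = 0.0698, 355 genes). All differences below are therefore descriptions of these 8 libraries. Mir453 had the limma adjusted p given above, Snord83b 0.769, and every other gene named with an interaction 0.9998.

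Over all tested genes the median interaction was -0.03 and 47.1% of genes lay above 0. The SMA difference in motor neurons had a Pearson correlation of 0.094 with that in white matter across the 13948 genes, which are not independent replicates. The regions share no libraries. For motor neurons, both SMA libraries lay above both WT libraries for 1922 genes (13.8%) and below both for 2128 (15.3%). The white matter counts were 2115 above (15.2%) and 1935 below (13.9%).

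A gene was counted as opposite where the SMA and WT libraries did not overlap in either region and the difference was at least 0.5 in each, with different signs. By these values 54 genes (0.387%) were higher in SMA motor neurons and lower in SMA white matter, and 45 (0.323%) were lower in SMA motor neurons and higher in SMA white matter. On the deposited RPKM scale, where the median interaction of all genes was -0.33 and 24.2% lay above 0, the counts were 17 and 170, and 59 of the 99 genes met the rule there. Without SMA motor neuron replicate 1 the counts were 152 and 82, and without replicate 2 they were 87 and 125, where separation needs only 1 SMA library. For comparison, 98 genes (0.703%) were higher in both regions and 78 (0.559%) lower in both. Because the same values chose the 99 genes and make up their interaction (1.02 to 3.87 in size), that size supports nothing further. At the threshold of 0.5, Tlr9 lay just inside (-0.502 in white matter) and B230206F22Rik just outside (0.499 in motor neurons). On the other side Susd2 lay just inside (-0.504 in motor neurons) and Lypd6b just outside (0.498 in white matter).

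**Figure D1:**
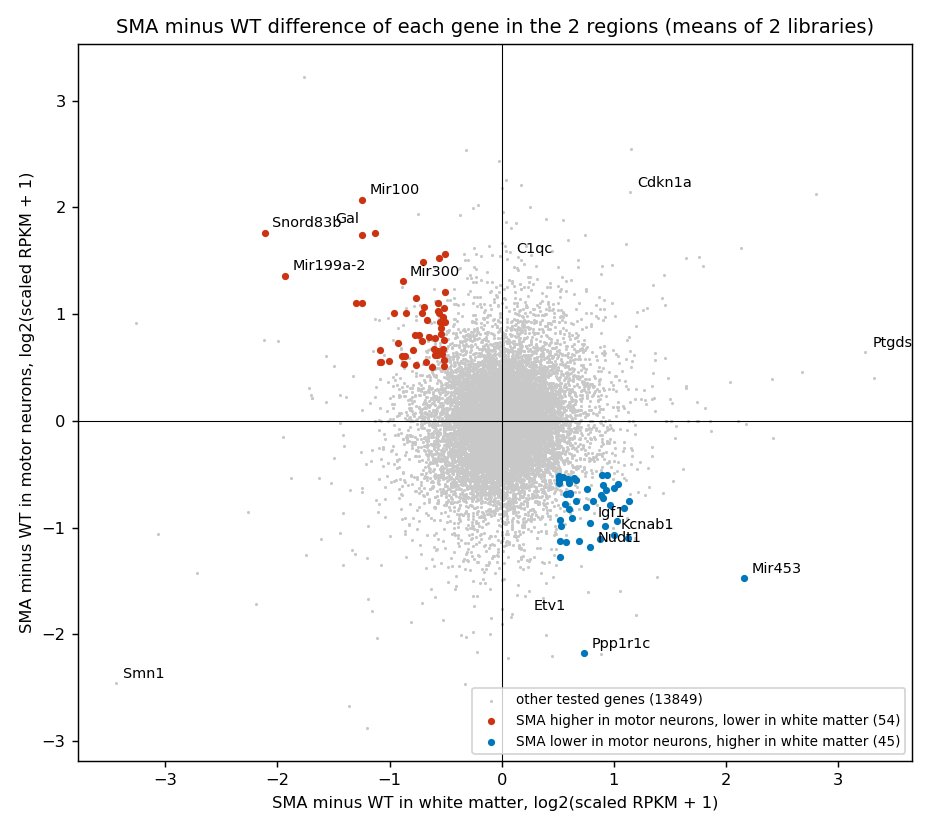
Each point is 1 of the 13948 tested genes, with the SMA minus WT difference in white matter on the horizontal axis and in motor neurons on the vertical axis, both as log2(scaled RPKM + 1) from means of 2 libraries. The 54 red genes (upper left) and the 45 blue genes (lower right) took opposite directions, and Mir453 is the blue point farthest from 0 in white matter.

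The opposite genes were expressed at low levels. Their median level over the 8 libraries was 3.86 scaled RPKM, against 6.34 for all tested genes, and 60 of the 99 were under 5, against 5889 of 13948 (42.2%). The 78 genes lower in SMA in both regions resembled them, with a median level of 3.58, 47 genes (60.3%) under 5 and 9 small RNA genes (11.5%). The 98 genes higher in both had a median level of 5.06, 48 genes (49.0%) under 5 and 4 small RNA genes (4.08%). By direction, small RNA genes were 8 of the 54 opposite genes higher in SMA motor neurons (14.8%) and 3 of the 45 lower there (6.67%). The median gene length of the 99 opposite genes, worked back from the RPKM steps, was 1664 bases. It was 2142.5 for the 78 genes lower in both regions, 1910.5 for the 98 higher in both and 2706 for all tested genes. In WT, 33 of the 45 genes lower in SMA motor neurons and higher in SMA white matter had the higher mean in motor neurons, as did 15 of the 54 in the other direction and 6658 of all 13948. The WT values enter both this count and the choice of the genes.

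Mir453 had the smallest p of all interactions. It was at 19.7 and 24.2 scaled RPKM in WT motor neurons (154 and 149 reads) and at 5.77 and 8.98 in SMA motor neurons (44 and 51 reads). The order was turned round in white matter, with 0.314 and 0.140 in WT (2 and 1 reads) and 4.87 and 4.10 in SMA (45 and 38 reads). WT motor neurons were thus far above WT white matter, while the SMA libraries of the 2 regions lay close together. The difference was -1.47 in motor neurons and 2.16 in white matter, an interaction of -3.63 ± 0.46 (SE). Without SMA motor neuron replicate 1 it was -3.32 and passed the threshold (limma adjusted p = 0.0448), and without replicate 2 it was -3.94 and did not (limma adjusted p = 0.0957). The adjusted p of its other alternatives reached 0.9998.

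Mir453 lies within Mirg, the long RNA that hosts many microRNAs of the imprinted Dlk1-Dio3 region, which is expressed from the maternal chromosome. Mirg itself did not follow it: it was at 8.32 and 6.83 in WT and at 4.52 and 7.84 in SMA motor neurons, and at 2.10 and 1.98 in WT and 0.123 and 0.443 in SMA white matter. Both SMA white matter libraries were thus lower for Mirg where they were higher for Mir453. Mir667, from the same region, resembled Mir453, at 14.0 and 20.3 in WT and 7.13 and 12.9 in SMA motor neurons. In white matter it was at 1.68 and 0 in WT (12 and 0 reads) and 2.60 in both SMA libraries (27 reads each), and its interaction was -1.89 ± 0.68.

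Mir300 took the other direction within this region. It was at 10.6 and 8.60 in WT and 33.9 and 18.6 in SMA motor neurons (80, 51, 249 and 102 reads). In white matter it was at 1.63 and 0.291 in WT (10 and 2 reads) and listed at 0 in both SMA libraries. The interaction was 2.19 ± 0.60, and the white matter side of it rests on 10 reads or fewer in any library.

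Of the genes between Dlk1 and Dio3, 57 were tested, 48 of them microRNA genes. The interaction was above 0 for 24 and below 0 for 33, with a median of -0.15, against -0.03 over all genes. The median SMA difference was -0.53 in motor neurons and -0.32 in white matter. Opposite patterns were found for Mir300, Mir453 and Mir667 (0.71% of all tested genes). These 3 are microRNA genes, and 7 of all 249 tested microRNA genes had opposite patterns. Differences of at least 0.5 towards lower levels in SMA in both regions were found for 3 genes (0.559% of all), among them Mir379 and Mir154. Of the 57, 42 were listed at 0 in at least 1 library. Of the long RNAs of the cluster, Meg3 differed by 0.03 in motor neurons and -0.44 in white matter. Rian lay lower in SMA in both regions without overlap, at 69.5 and 72.2 in WT and 58.1 and 38.1 in SMA motor neurons and at 15.0 and 16.8 in WT and 11.4 and 11.6 in SMA white matter, differences of -0.58 and -0.43.

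Mir100, made from Mir100hg, was nearly absent from WT motor neurons, with 0 and 2 reads, and had 48 and 12 reads in SMA motor neurons. The white matter reads were 5 and 17 in WT and 0 and 1 in SMA. The interaction was 3.31 ± 0.68, with differences of 2.07 in motor neurons and -1.24 in white matter. Mir199a-2, which lies within Dnm3 and its antisense transcript Dnm3os, had 0 reads in both WT motor neuron libraries, 1 and 38 in SMA motor neurons, 32 and 55 in WT white matter and 6 in each SMA white matter library. The motor neuron side thus rests on SMA replicate 2. The interaction of 3.29 ± 0.92 became 4.49 without SMA motor neuron replicate 1 (limma adjusted p = 0.0197) and 2.08 without replicate 2 (limma adjusted p = 0.490). Over all its alternatives the adjusted p ranged from 0.0197 to 1. Dnm3 itself differed by 0.10 in motor neurons and -0.19 in white matter. Mir374c and Mir3103, the remaining microRNA genes of the set, were both higher in SMA motor neurons and lower in SMA white matter. Their motor neuron groups nearly met. Mir374c had 1 and 2 reads in WT and 9 and 2 in SMA motor neurons. Its replicate 2 was at 0.544 scaled RPKM in WT and 0.590 in SMA. Mir3103 had 15 and 11 reads in WT (2.35 and 2.19 scaled RPKM) and 16 and 25 in SMA motor neurons (2.57 and 5.39).

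Small nucleolar RNAs guide chemical modification of ribosomal RNA and are mostly cut from introns of protein-coding genes, often genes of the ribosome itself. Snord83b, in an intron of the ribosomal protein gene Rpl3, had the largest interaction of the 99 genes, 3.87 ± 0.62. It was at 0 and 0.865 in WT and 3.35 and 3.94 in SMA motor neurons (0, 5, 24 and 21 reads), and at 2.67 and 5.82 in WT and 0 and 0.345 in SMA white matter (16, 39, 0 and 3 reads). Rpl3 differed by only 0.03 in motor neurons and -0.21 in white matter.

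Snora3, within the ribosomal protein gene Rpl27a, was at 1.31 and 0.777 in WT and 4.21 and 7.82 in SMA motor neurons. In white matter it was at 8.68 and 7.38 in WT and 1.40 and 5.02 in SMA, an interaction of 2.99 ± 0.66. Its host differed the other way in motor neurons, by -0.48, and by 0.13 in white matter. Snora5c, within Tbrg4, took the same direction as Snora3 (1.49 and -0.70), and its host the reverse (-0.31 and 0.56). Snord111, within Sf3b3, was the small nucleolar RNA with the other sign. It had 7 and 4 reads in WT motor neurons and 0 in both SMA motor neuron libraries. In white matter it had 6 and 20 reads in WT and 26 in each SMA library. As scaled RPKM its white matter groups nearly met, at 1.21 and 3.592 in WT and 3.604 and 3.596 in SMA. None of the host genes with a tested value was itself among the 99.

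Among protein-coding genes higher in SMA motor neurons and lower in SMA white matter, Gal was the clearest. It encodes galanin, a secreted neuropeptide known for its induction in injured neurons. Gal was at 2.58 and 2.71 in WT and 8.44 and 15.2 in SMA motor neurons (172, 142, 549 and 737 reads). In white matter it was at 2.56 and 0.691 in WT (139 and 42 reads) and 0.0127 and 0.241 in SMA (1 and 19 reads). SMA and WT were separate in both regions. WT white matter was the most spread group as log2(scaled RPKM + 1), and SMA motor neurons as scaled RPKM. The interaction was 2.89 ± 0.62.

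Etnk2, ethanolamine kinase 2 of phospholipid synthesis, was at 2.72 and 3.16 in WT and 4.89 and 11.1 in SMA motor neurons, and at 3.78 and 3.36 in WT and 0.911 and 0.936 in SMA white matter. In WT the regions were close to each other, and in SMA they were not. Its interaction was 2.35 ± 0.55. The uncharacterised gene BC030500 had the same pattern (4.19, 7.75, 11.9 and 15.3 in motor neurons, then 2.19, 4.27, 0.547 and 0.800 in white matter, each WT first) and an interaction of 2.40 ± 0.55.

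Tmem106c, a membrane protein gene, was at 4.39 and 3.18 in WT and 15.2 and 4.68 in SMA motor neurons, so that SMA replicate 2 lay just above WT. In white matter it was at 15.1 and 20.3 in WT and 9.54 and 7.64 in SMA. Cby1, which binds beta-catenin and also acts at the base of cilia, was at 8.92 and 7.202 in WT and 13.9 and 21.3 in SMA motor neurons, and at 23.0 and 19.5 in WT and 16.1 and 7.79 in SMA white matter. The interactions were 1.97 ± 0.64 for Tmem106c and 1.87 ± 0.51 for Cby1.

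Other genes of this direction, picked after their values were seen, cover several roles. Genes of the nucleus included Snapc1, a subunit of the complex that starts transcription of small nuclear RNA genes (1.03 in motor neurons and -0.57 in white matter), Terc, the RNA of telomerase (0.79 and -0.65), the co-repressor Tle2 (1.01 and -0.56) and Rad51c of homologous recombination (0.53 and -0.77). The cell cycle kinase gene Cdk2 (0.57 and -0.51) and Pold4, a small subunit of DNA polymerase delta (0.67 and -0.79), belong to DNA replication. Genes of membrane proteins included Sema4a, a semaphorin (0.75 and -0.52), Tlr9, a receptor for DNA (1.20 and -0.50), and Kcnmb2, an auxiliary subunit of large-conductance potassium channels (0.61 and -0.86). Batf3, a transcription factor of dendritic cells, differed by 1.57 and -0.51, and SMA motor neuron replicate 2 (16.1) set the first of these, with 1.75 in replicate 1 and 1.19 and 1.44 in WT.

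In the other direction, genes lower in SMA motor neurons and higher in SMA white matter included a growth factor, channel subunits and enzymes. Igf1, insulin-like growth factor 1, which supports survival of motor neurons and growth of glia, was the most abundant of the 10 genes with the largest opposite differences in this direction. Igf1 was at 54.2 and 55.6 in WT and 22.8 and 34.0 in SMA motor neurons, and at 4.85 and 3.54 in WT and 6.41 and 9.74 in SMA white matter. Levels in white matter stayed well under those in motor neurons in both genotypes. The interaction was -1.75 ± 0.44.

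A potassium channel and its partner subunit were found here. Kcna1 encodes a voltage-gated potassium channel of axons, and Kcnab1 a beta subunit that joins such channels. Kcnab1 was at 19.8 and 23.9 in WT and 11.5 and 8.45 in SMA motor neurons, and at 0.530 and 0.716 in WT and 2.80 and 1.76 in SMA white matter, an interaction of -2.07 ± 0.46. Kcna1 was at 14.0 and 13.6 in WT and 9.89 and 6.78 in SMA motor neurons, and at 0.721 and 0.882 in WT and 1.87 and 1.49 in SMA white matter, an interaction of -1.26 ± 0.45. They were the opposite genes of the voltage-gated channel list, 2 of its 40 tested members against 0.71% of all genes. Susd2, a membrane protein gene and like these far higher in motor neuron captures, was at 66.2 and 62.1 in WT and 37.3 and 53.9 in SMA motor neurons, and at 1.30 and 0.964 in WT and 3.60 and 2.38 in SMA white matter.

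For Igf1, Kcnab1, Kcna1 and Susd2, the level of motor neuron markers is given alongside. The summed level of the 24 tested motor neuron genes was 4151 to 4708 in WT and 3065 to 3961 in SMA motor neurons, and 106 to 123 in WT and 118 to 185 in SMA white matter, where the groups overlapped. Of these 24 genes, 18 had a positive and 6 a negative difference in white matter, with a median of 0.25, and 6 had both SMA libraries above both WT libraries (15.2% of all genes) and 1 below both (13.9%). The defining markers were low in white matter: Chat was at 0.201 and 0.0654 in WT and at 0.777 and 0.00315 in SMA, Isl1 at 0.519 and 0.0728 and at 0.0843 and 0.0385, and Mnx1 at 0.0795 and 0 and at 0.0122 and 0. Their part in the result was not tested. In bulk captures such as these, fewer cells of a type and less RNA per cell cannot be told apart.

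Ppp1r1c, an inhibitor subunit of protein phosphatase, was at 7.74 and 5.29 in WT and 1.07 and 0.3005 in SMA motor neurons, and at 0.0924 and 0 in WT and 0.312 and 1.31 in SMA white matter (19, 0, 93 and 391 reads). Its interaction was -2.91 ± 0.58. Ppard, a nuclear receptor that senses fatty acids, had similar WT levels in both regions: 3.48 and 4.58 in WT and 1.43 and 1.62 in SMA motor neurons, and 4.60 and 3.36 in WT and 8.44 and 8.23 in SMA white matter. The replicates of Ppard were close in every group, and the interaction was -1.90 ± 0.45. Nudt1, which removes oxidised nucleotides, was at 8.02 and 9.99 in WT and 2.78 and 4.06 in SMA motor neurons, and at 2.53 and 2.26 in WT and 5.13 and 4.63 in SMA white matter, an interaction of -1.98 ± 0.45.

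Mical2, an actin-oxidising enzyme, had an interaction of -1.90 ± 0.51, with 9.13 and 7.46 in WT and 3.10 and 5.77 in SMA motor neurons and 1.49 and 0.893 in WT and 3.19 and 4.10 in SMA white matter. Nucb2, the precursor of the peptide nesfatin, was at 6.97 and 8.38 in WT and 5.03 and 3.17 in SMA motor neurons, and at 3.31 and 2.37 in WT and 9.99 and 4.06 in SMA white matter. Fam83d, a protein of the mitotic spindle, was at 1.32 and 3.06 in WT and 0.747 and 0.467 in SMA motor neurons, and at 6.14 and 2.35 in WT and 8.26 and 9.79 in SMA white matter. Kif22, a chromosome-bound kinesin, and Gsg2, which encodes the mitotic kinase haspin, took the same direction as Fam83d (-0.81 and 0.75 for Kif22, -0.51 and 0.94 for Gsg2) and were picked after their values were seen. The list of neural stem or proliferating cells did not share their rise in white matter. There 12 of its 29 members had a positive and 17 a negative difference, with a median of -0.05. In motor neurons the counts were 11 and 18, with a median of -0.11. The unnamed genes 2010204K13Rik and 5730408K05Rik, at 4.11 scaled RPKM or less in every library, completed the 10 genes named for the size of both differences.

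Snrpd3 encodes a core Sm protein, one of those that SMN loads onto small nuclear RNAs. It was at 10.9 and 17.5 in WT and 7.40 and 7.27 in SMA motor neurons, and at 7.197 and 7.55 in WT and 10.3 and 13.2 in SMA white matter. The groups did not overlap in either region, and the interaction was -1.42 ± 0.43. It was the 1 opposite gene among the 19 tested genes of the SMN complex and Sm core, against 0.71% of all genes. The median interaction of that list was 0.06, with 11 above and 8 below 0, and the other Sm genes Snrpb (0.34), Snrpd1 (-0.05), Snrpd2 (-0.18), Snrpe (0.59), Snrpf (0.51) and Snrpg (0.01) did not share its pattern. Ddx20, also called Gemin3, a helicase of the SMN complex, had an interaction of -0.86 ± 0.55.

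**Figure D2:**
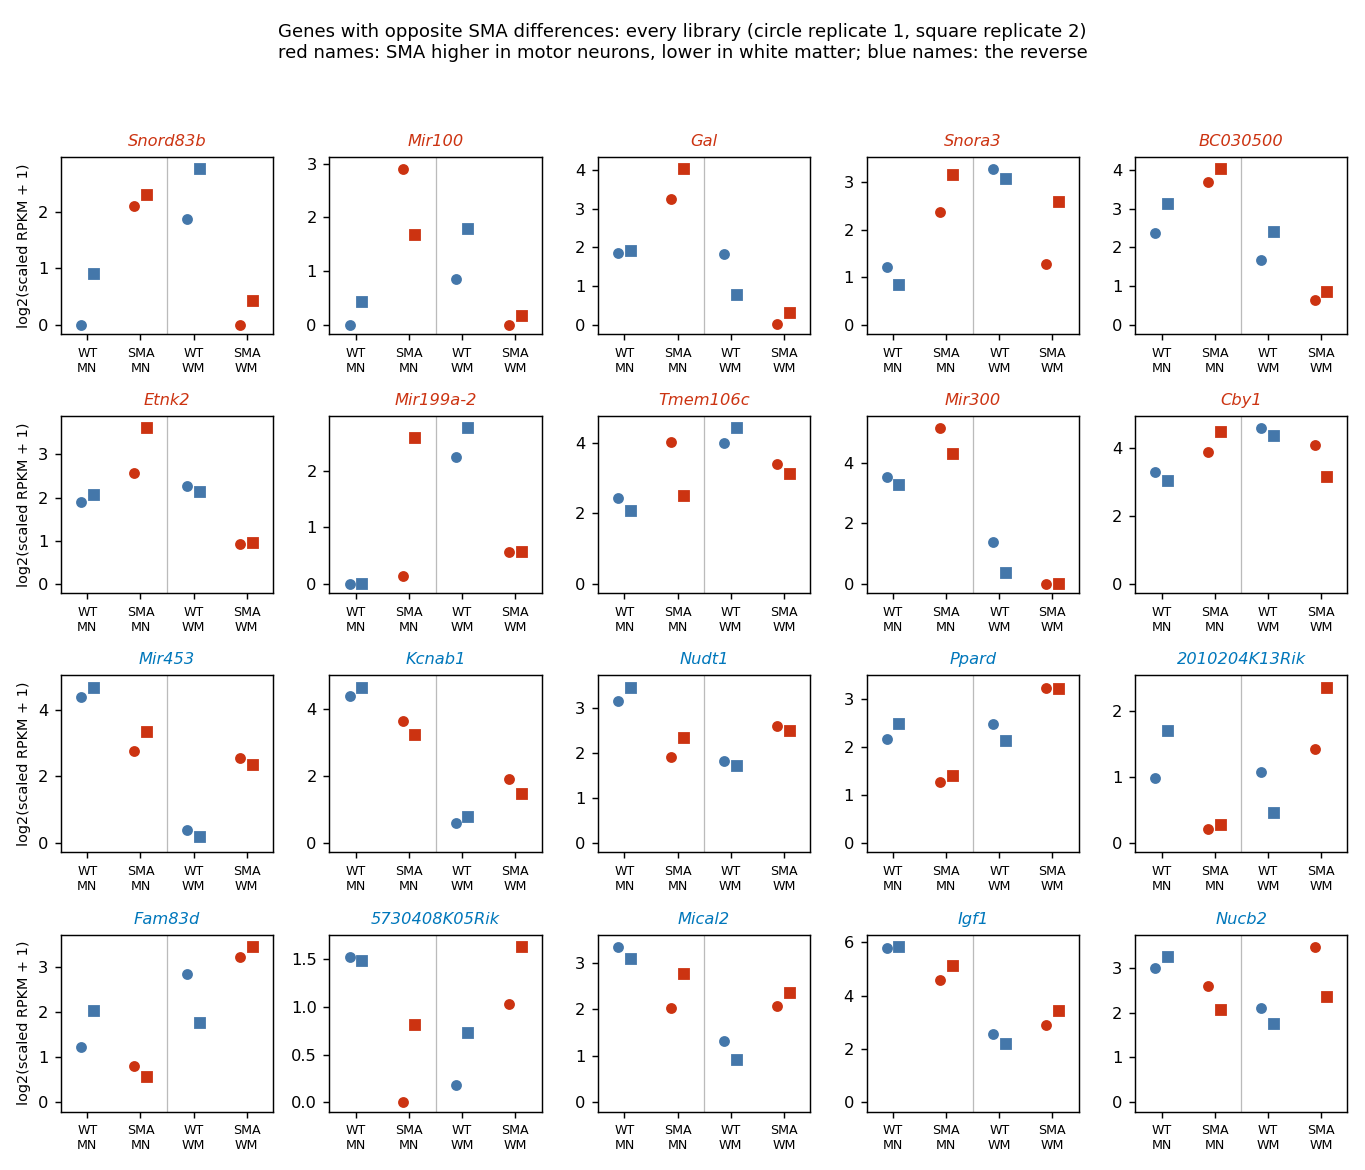
The 20 genes with the largest opposite differences, 10 in each direction, are plotted in all 8 libraries as log2(scaled RPKM + 1), with WT in blue and SMA in red and motor neurons left of the grey line. In the 10 genes with red names the SMA points lie above WT on the left and below WT on the right, and in the 10 with blue names the reverse, with the closest approach in Tmem106c in motor neurons.

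Several genes with the smallest interaction p differed in 1 region only or far more in 1 region. C1qc, a subunit of the first component of complement, was at 7.79 and 10.6 in WT and 28.4 and 27.6 in SMA motor neurons, whereas in white matter it was at 63.7 and 75.2 in WT and 67.0 and 76.2 in SMA. The interaction was 1.48 ± 0.35, with a white matter difference of 0.05. C1qb (1.75 ± 0.57) and C1qa (1.84 ± 0.58) had interactions of like size, and white matter differences of 0.25 and -0.33. Rilp, which links late endosomes to dynein, was at 1.32 and 2.09 in WT and 6.41 and 5.95 in SMA motor neurons and at 0.510 or less in white matter, an interaction of 1.81 ± 0.47.

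Microglia express C1q. Of 23 tested microglia genes, the 3 C1q genes included, 16 had an interaction above 0, with a median of 0.49 (0.30 to 0.76 when single libraries were left out). Of the 20 others, 13 lay above and 7 below 0, with a median of 0.45, and of 0.33 in motor neurons and 0.08 in white matter. Summed, these 20 were at 58.8 and 69.1 in WT and 87.6 and 105.7 in SMA motor neurons, and 444 and 532 in WT and 448 and 591 in SMA white matter. The 3 C1q genes alone summed to 13.5 and 19.0 in WT and 50.1 and 65.4 in SMA motor neurons. The defining markers were higher in both SMA motor neuron libraries: Aif1 was at 0.156 and 1.11 in WT and 2.58 and 1.45 in SMA motor neurons, Csf1r at 3.82 and 3.08 and at 8.01 and 4.52, and Tmem119 at 1.26 and 0.577 and at 2.65 and 2.27. None was at 0 in any motor neuron library. The part of microglia in the C1q difference was not tested.

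Etv1, an ETS transcription factor found in sets of motor neurons and in proprioceptive neurons, lay in the other direction. It was at 7.48 in both WT and 1.83 and 1.61 in SMA motor neurons, and at 3.18 and 4.82 in WT and 5.34 and 4.11 in SMA white matter, where the groups overlapped. Its interaction was -1.85 ± 0.46. Nppc, the precursor of C-type natriuretic peptide, was at 25.6 and 24.3 in WT and 5.93 and 8.72 in SMA motor neurons and at 0.807 or less in white matter, an interaction of -2.03 ± 0.50. Chodl, known from fast motor neurons, had levels of 77.4 and 79.8 in WT and 27.1 and 39.0 in SMA motor neurons and of 2.41 or less in white matter, an interaction of -0.93 ± 0.47. Agrn, the organiser of the neuromuscular junction, had an interaction of -0.09 ± 0.35.

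The reverse case was Ptgds, prostaglandin D synthase, a product of meninges and oligodendrocytes. It was at 6.24 and 6.49 in WT and 16.2 and 6.68 in SMA motor neurons, and at 15.8 and 17.5 in WT and 149 and 184 in SMA white matter. Both SMA white matter libraries were far above WT, and the interaction was -2.60 ± 0.51. Without SMA motor neuron replicate 1 it was -3.16 and passed the threshold (limma adjusted p = 0.0197), and without replicate 2 it was -2.02 and did not (limma adjusted p = 0.447). The adjusted p of its other alternatives reached 1.

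Among stress genes, Cdkn1a, the cell cycle inhibitor p21 and a target of p53, was higher in SMA in both regions, though more so in motor neurons: 57.3 and 60.3 in WT and 236 and 292 in SMA motor neurons, and 23.4 and 40.0 in WT and 67.7 and 70.3 in SMA white matter. The difference was 2.14 in motor neurons and 1.14 in white matter, an interaction of 0.996 ± 0.39. Fos, an immediate early transcription factor, was at 1.70 and 2.13 in WT and 11.7 and 7.72 in SMA motor neurons, and at 1.42 and 1.86 in WT and 2.16 and 1.61 in SMA white matter, an interaction of 1.73 ± 0.48. Gfap, the filament protein of astrocytes, was at 4.58 and 9.33 in WT and 20.6 and 21.7 in SMA motor neurons, while white matter was at 209 and 163 in WT and 204 and 163 in SMA, an interaction of 1.56 ± 0.44. Over the 22 tested astrocyte genes the median interaction was 0.05, and their summed level in motor neuron captures was 1527 to 1915 in WT and 1334 to 2309 in SMA.

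The rest of the genes with the smallest p were 3 small RNA genes and a pseudogene. Snord95 was at 1.54 and 0 in WT and 14.7 and 13.2 in SMA motor neurons, but its white matter libraries overlapped (18.3 and 30.6 in WT, 1.30 and 22.0 in SMA), and its interaction was 4.99 ± 1.24. Mir339 had 39 and 204 reads in WT and 2 and 5 in SMA white matter, with reads in motor neurons in SMA replicate 2 alone (17), an interaction of 4.17 ± 0.99. Snord42a was lower in SMA motor neurons (12.8 and 35.8 in WT, 4.30 and 3.53 in SMA) and overlapped in white matter (28.0 and 49.3 in WT, 53.6 and 49.0 in SMA). Olfr329-ps was at 2.67 and 2.81 in WT motor neurons and listed at 0 in the other 6 libraries.

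Gene lists for 12 cell types and 16 pathways and complexes are described by their counts and medians, beside the median of -0.03 and the 47.1% above 0 over all genes. No list had a member past the threshold of the interaction. Against the shifted median of all genes, the deposited scale gave the lists described at length the same signs (-0.58 for motor neuron, 0.55 for histone, 0.45 for cholesterol, 0.50 for p53, 0.52 for microglia and -0.42 for fibroblast or meninges genes). The motor neuron list was the most one-sided towards lower values: 2 of 24 members had an interaction above 0, with a median of -0.67, a median of -0.38 in motor neurons and of 0.25 in white matter. The neurofilament gene Nefh was at 134 and 103 in WT and 91.2 and 93.0 in SMA motor neurons, and at 2.79 and 1.04 in WT and 4.72 and 2.54 in SMA white matter, an interaction of -1.05 ± 0.51. Gfra1, a receptor for glial cell line-derived neurotrophic factor, had an interaction of -1.04 ± 0.50. Leaving out SMA motor neuron replicate 1 brought the list median to -0.35, and leaving out replicate 2 to -0.89.

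Replication-dependent histone genes, whose transcription is tied to DNA synthesis, lay on the other side: 61 of 66 had an interaction above 0, with a median of 0.56. Their median was 0.07 in motor neurons and -0.46 in white matter, where 61 of 66 were lower in SMA and 21 had both SMA libraries below both WT libraries (13.9% of all genes). The 2 members with the smallest interaction p differed more in motor neurons than in white matter. Their differences, motor neurons first, were 1.997 and -0.258 for Hist3h2bb-ps and 0.833 and -0.257 for Hist1h2bh. The white matter groups of Hist1h2bh overlapped. The linker histone gene Hist1h1a, which was not named by its p, was at 56.1 and 28.7 in WT and 21.2 and 20.8 in SMA white matter. The summed level was 4348 and 2547 in WT and 2724 and 1990 in SMA white matter, so the groups overlapped, and without WT white matter replicate 1 the list median was 0.18 and without replicate 2 it was 0.93. In motor neurons the sum was 1213 in both WT libraries and 1015 and 1614 in SMA. Histone genes have near-identical copies whose reads may be split between them, so the 66 are not independent. The list of neural stem or proliferating cells had a median interaction of -0.15, with 9 of 29 above 0.

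Cholesterol synthesis genes had an interaction above 0 for 21 of 23 members, with a median of 0.45. The white matter side carried it: the median was -0.53 there and -0.13 in motor neurons, and 15 of 23 had both SMA white matter libraries below both WT libraries (13.9% of all genes). Sqle, squalene epoxidase, was at 113 and 131 in WT and 122 and 111 in SMA motor neurons, and at 79.1 and 66.7 in WT and 44.5 and 37.5 in SMA white matter, an interaction of 0.755 ± 0.32. Nsdhl, a later enzyme of the pathway, was at 52.2 and 45.7 in WT and 54.9 and 54.3 in SMA motor neurons and at 44.9 and 42.4 in WT and 25.6 and 27.3 in SMA white matter, an interaction of 0.861 ± 0.31. The list median lay between 0.25 and 0.53 when single libraries were left out. Oligodendrocytes make much of the cholesterol of myelin, and the 23 tested genes of myelinating oligodendrocytes had a summed level in white matter of 2721 to 5214 in WT and 2925 to 5192 in SMA, which overlapped. In motor neuron captures their summed level was 151 to 163 in WT and 196 to 237 in SMA, without overlap. Their median interaction of 0.31 ranged from -0.14 to 0.76 when single libraries were left out.

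Genes induced by p53 had an interaction above 0 for 23 of 30 members, with a median of 0.48 (0.54 in motor neurons and 0.11 in white matter). In motor neurons 16 of 30 had both SMA libraries above both WT libraries (13.8% of all genes) and 0 below both (15.3%). In white matter 3 lay above both (15.2% of all genes) and 3 below both (13.9%). Plk2, of the polo-like kinases, was at 5.81 and 6.59 in WT and 17.9 and 14.6 in SMA motor neurons, and at 6.22 and 5.45 in WT and 8.80 and 5.62 in SMA white matter, an interaction of 1.02 ± 0.43. The pro-apoptotic gene Bax had an interaction of 0.85 ± 0.40. Psrc1, which binds microtubules, was higher in SMA in both regions, with an interaction of -0.07. Without any single library the list median lay between 0.28 and 0.65.

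Matrix genes and genes of fibroblasts and meninges were higher in SMA white matter. For the fibroblast or meninges list, 17 of 17 members had a positive white matter difference, 12 with separate groups (15.2% of all genes), and the median was 0.88 there and 0.19 in motor neurons. The interaction was below 0 for 13 of 17, with a median of -0.48, which was -0.87 without SMA motor neuron replicate 1 and -0.29 without WT white matter replicate 1. The summed level was 256 to 309 in WT and 582 to 636 in SMA white matter. The extracellular matrix list, which shares collagens and others with it, had an interaction below 0 for 33 of 43 and a median of -0.31, or -0.15 without SMA white matter replicate 1. Col4a1, a basement membrane collagen, was at 2.82 and 3.38 in WT and 9.44 and 6.51 in SMA white matter and at 1.48 to 2.88 in motor neurons, an interaction of -1.20 ± 0.50. Thbs2, a secreted thrombospondin, was the opposite gene of this list, with -0.55 in motor neurons and 0.59 in white matter.

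Vascular lists went the same way: 12 of 18 endothelium genes and 9 of 12 pericyte genes had an interaction below 0, with medians of -0.31 and -0.26. Most members were higher in SMA in both regions. In motor neurons 13 of 18 and 9 of 12 had a positive difference (medians of 0.21 and 0.29). In white matter 17 of 18 and 11 of 12 did (0.48 and 0.49). Flt1 was among the 5 endothelium genes with a negative difference in motor neurons. Flt1, a receptor for vascular endothelial growth factor, was an opposite gene, at 2.60 and 3.35 in WT and 2.36 and 1.09 in SMA motor neurons and 1.77 and 1.28 in WT and 4.06 and 1.88 in SMA white matter. Its interaction was -1.18 ± 0.57. Without SMA motor neuron replicate 1 the endothelium median was -0.06, and the pericyte median was -0.018 without SMA white matter replicate 1 and -0.55 without replicate 2. Red blood cell genes had a median of -0.75 over 8 genes that turned to 0.27 without SMA white matter replicate 2, the library with the highest summed level (3576, against 703 to 1720 in the other white matter libraries). For Flt1, Thbs2 and the matrix genes, the part of captured vessels or meninges was not tested.

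The spinal interneuron list had 11 of 17 members above 0 and a median of 0.34, which ranged from -0.05 to 0.78 when single libraries were left out. In motor neurons 16 of 17 had a positive difference, with a median of 0.46, against 10 of 17 and 0.06 in white matter. Both SMA motor neuron libraries lay above both WT libraries for 6 (13.8% of all genes) and below both for 0 (15.3%). The summed level was 273 in both WT and 284 and 536 in SMA motor neurons. The part of captured interneurons was not tested. Lhx5, a transcription factor of dorsal interneurons, was at 0.502 and 0.560 in WT and 2.24 and 3.11 in SMA motor neurons and at 0.334 or less in white matter, an interaction of 1.31 ± 0.48. The hypoxia and glycolysis list had 5 of 25 above 0 and a median of -0.21, which was 0.12 without SMA motor neuron replicate 1. Medians of the other lists lay between -0.14 and 0.23, against -0.03 for all genes. They were 0.12 for cytosolic ribosomal proteins (79 genes), -0.01 for the nuclear-encoded respiratory chain (77) and -0.10 for voltage-gated channels (40). Synaptic vesicle and release genes (37) had -0.10, transmitter receptors (38) -0.14, and synaptogenesis and the neuromuscular junction (42) -0.14. The medians were 0.09 for complement (15), 0.09 for the unfolded protein response (26) and 0.23 for immediate early genes (19). Those of the interferon response (16), oligodendrocyte precursors (17) and Schwann cells (8) were -0.11, 0.07 and -0.02.

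**Figure D3:**
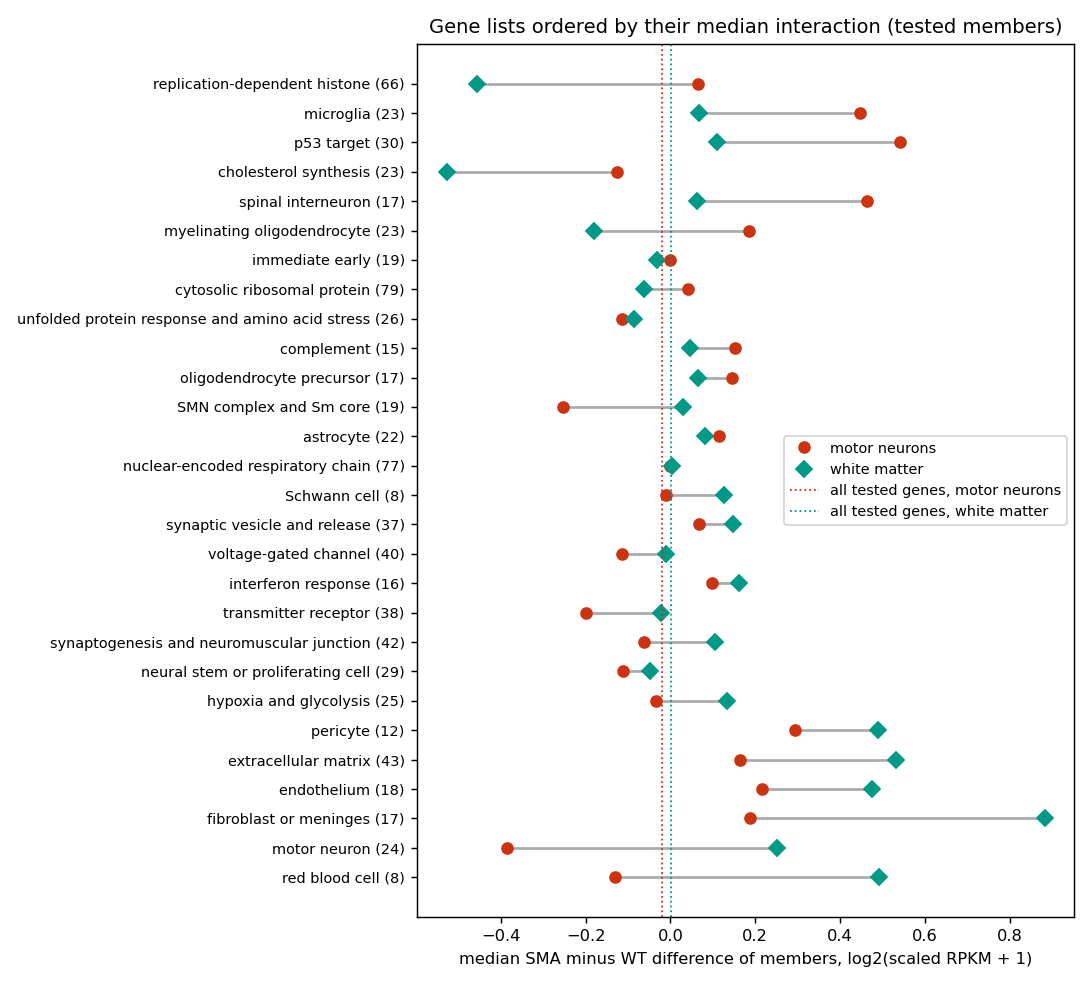
For each of the 28 gene lists, ordered by median interaction, the median SMA minus WT difference of the tested members, as log2(scaled RPKM + 1), is shown in motor neurons (circles) and white matter (diamonds), with dotted lines at the medians of all tested genes. The motor neuron list lies below 0 in motor neurons (-0.38) and above 0 in white matter (0.25), and the histone and cholesterol lists lie lowest in white matter (-0.46 and -0.53).

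Library by library, the lists differed in how far the replicates went together. Against the WT mean of its region, the median cholesterol synthesis gene was at -0.42 and -0.57 in the SMA white matter libraries and at -0.05 and -0.09 in the SMA motor neuron libraries. The median p53 target was at 0.58 and 0.49 in SMA motor neurons. The median motor neuron gene was at -0.57 in SMA motor neuron replicate 1 and -0.12 in replicate 2. The histone list had opposite signs in these libraries, -0.25 and 0.41.

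**Figure D4:**
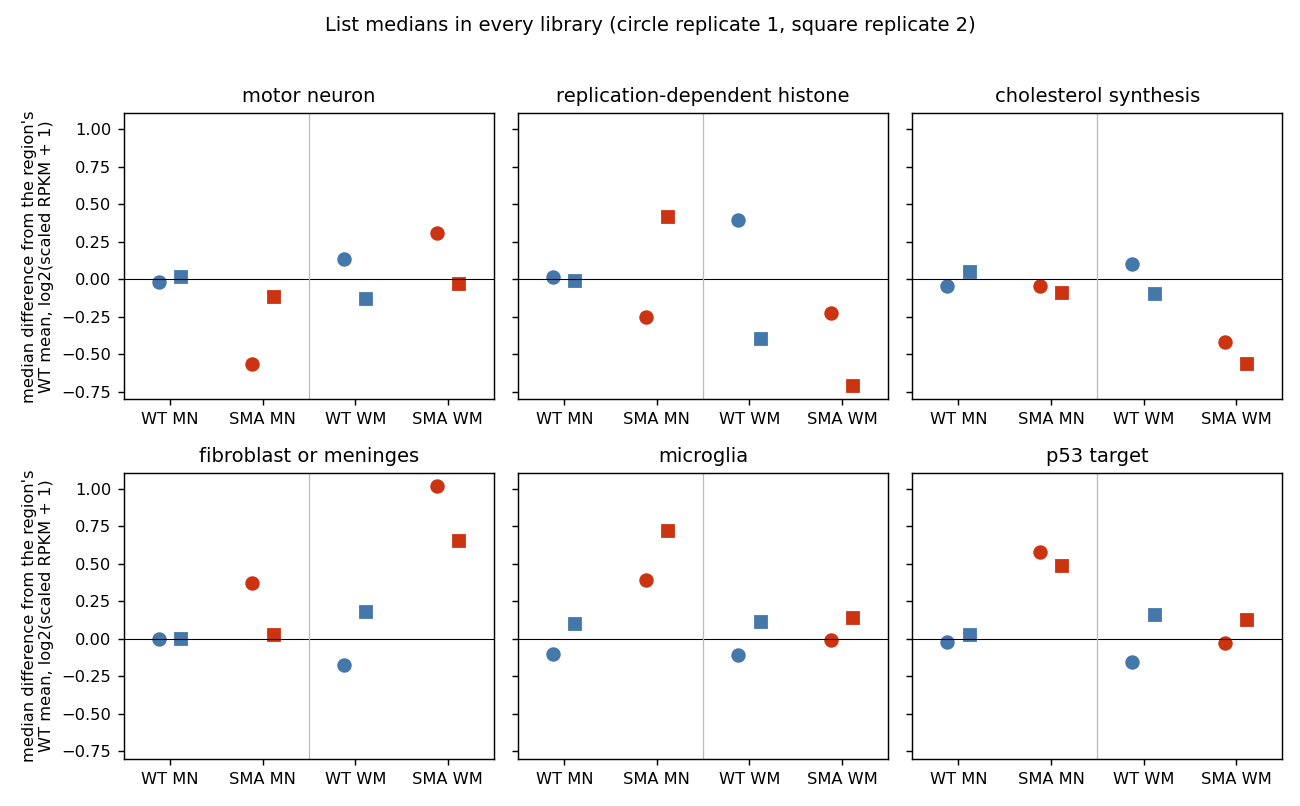
For 6 lists, each point is 1 library and gives the median, over the tested members, of the difference from the WT mean of the same region in log2(scaled RPKM + 1), with WT in blue, SMA in red, circles for replicate 1 and squares for replicate 2. The SMA motor neuron replicates lie apart for motor neuron genes (-0.57 and -0.12) and histone genes (-0.25 and 0.41), and close together for p53 targets (0.58 and 0.49).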

How the data were processed

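RNA-seq of total RNA from laser captures was made with NuGEN Ovation and Encore kits, per the labels' protocols. The authors deposited 1 table of RPKM values per library, and the submitters' processing notes name TopHat, bedtools, DESeq and the mm9 genome. The sources used here do not state versions, gene annotation, counting rule or strand, so overlapping, antisense and near-identical genes are uncertain. RPKM was divided by median-of-ratios factors (from 14001 genes above 0 in all 8 libraries), 1 was added and log2 taken. Genes needed 1 RPKM in 2 libraries, and 4154 were at 0 in all. A model of 4 group means was fitted with limma 3.58.1 (R 4.3.3, eBayes with trend), with two-sided p-values adjusted by Benjamini-Hochberg, and tested on simulated data. Reads were worked back from RPKM steps, whole within 0.01 read for 17427 of 17431 genes (99.98%) above 0 in at least 3 libraries. Depth covers counting error only. Named genes were the 10 with the smallest interaction p per direction, the 10 opposite genes per direction whose smaller difference was largest, the 2 of smallest p per list, and fixed check genes. Members and lists were chosen with earlier results of these data known. RefSeq (GRCm38.p6) served only for microRNA sequences, host genes and gene order, and 7 of 7 microRNA genes matched. Alternative settings were 20, and 1 added after seeing the data (limma voom on reads). Python 3.11.15, numpy 2.4.6, pandas 2.3.3 and matplotlib 3.10.9 were used.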

Additional observations from a re-analysis of the deposited data

How the results depend on the processing

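The interaction called 0 genes in each of the 20 alternative settings and the added one, except without SMA motor neuron replicate 1. There, 1 gene was called higher (Mir199a-2) and 7 lower (Mir453, Ptgds, Mir5113, Ndufs4, Pgk1, Prdx1 and 2010107E04Rik), by limma with the lone library assumed to vary like the other groups. Counts called over all single libraries left out were thus 0 to 1 higher and 0 to 7 lower. The number of opposite genes depended on the settings. Higher in SMA motor neurons and lower in white matter were 54 genes, 17 on the deposited scale, 93 with a pseudocount of 0.1, 8 with a pseudocount of 5, 25 with at least 5 RPKM in 2 libraries and 81 to 152 with single libraries left out. In the other direction the 45 genes became 170, 117, 1, 27 and 75 to 125. Leaving out a library makes separation easier by construction. On the deposited scale the median interaction of all genes was -0.33, and 59 of the 99 genes were kept. With a replicate block the interaction called 0 genes, 379 at an unadjusted p under 0.05. Replicate numbers went with sex in all 4 groups, so the block also takes up sex, but over all genes they did not pair libraries (correlations of replicate differences between groups were -0.353 to 0.078).

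Of 85 named genes, 82 kept the sign of their interaction in all alternatives. Many of them were named for the size or p of this same interaction, so a kept sign supports nothing further. With single libraries left out, Hbb-y ranged from -2.24 to 0.0074 (highest without SMA white matter replicate 2) and Agrn from -0.31 to 0.15 (highest without SMA motor neuron replicate 1, and 0.044 without WT white matter replicate 2), and Chat was at 0.42 with voom. The causes were not tested. With 2 libraries per group, differences under the median SE of 0.51 are within the error of a typical gene.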
